A study of Mus musculus with 12 samples.

Results

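The genotype effect shared by thermoneutral and cold mice was examined in subcutaneous white adipose tissue (scWAT) of Jmjd1a HY/HY and wild-type (Jmjd1a +/+) female mice. All 12 RNA-seq libraries of the series entered the comparison, 6 from Jmjd1a HY/HY mice and 6 from wild-type mice, with 3 of each genotype at 30°C and 3 at 8°C. The mice were 16 weeks old at the start, spent 1 week at 30°C to adapt, and were then kept at 30°C (thermoneutrality) or moved to 8°C (cold) for another week. The HY allele was a whole-body knock-in of the H1122Y substitution, made by CRISPR-Cas9 in C57BL/6J eggs, and the females came from 1 of the lines obtained, so the allele was studied in every cell type of the tissue and in a single line. Reads on the sense strand of each gene were fitted with an additive model, in which 1 genotype coefficient was shared by both temperatures and temperature was a second term. Gene levels are given as CPM, the reads of a gene scaled to a common library size with TMM factors, which do not correct for gene length.

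JMJD1A, encoded by Kdm3a, removes methyl groups from mono- and dimethylated lysine 9 of histone H3, a mark of silenced chromatin, and its Jumonji C domain needs an iron ion and 2-oxoglutarate for this. In adipose tissue the enzyme is known for its part in thermogenic gene expression under cold. The histidine replaced in the HY allele is one of the residues that hold the iron, and its codon is shown because the allele changes it. The coding bases 3334 to 3396 of the transcript Kdm3a-201 (GENCODE), with the histidine codon of wild-type mice in capitals, read as follows.
Kdm3a: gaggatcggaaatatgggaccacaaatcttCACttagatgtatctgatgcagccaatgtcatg

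Kdm3a itself (mm10 chromosome 6, 71588970 to 71632990) did not pass the test for a shared genotype effect. At 30°C it reached 46.5, 61.7 and 39.8 CPM in wild-type mice against 52.7, 46.4 and 37.4 CPM in HY/HY mice, and at 8°C 35.7, 42.9 and 41.1 CPM against 45.8, 43.2 and 45.3 CPM. The groups overlapped at 30°C, while at 8°C the HY/HY libraries lay slightly above the wild-type ones, and the shared log2 fold change was 0.02 ± 0.12 (SE, adjusted p = 0.931, exact permutation p = 0.775). A substitution of 1 residue leaves the transcript in place, so this level does not check the genotype labels.

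The libraries held between 13592629 and 26352081 sense counts. One wild-type library at 30°C (replicate 2) carried skeletal muscle transcripts, with 1767 CPM summed over 12 muscle markers against 7.88 to 29.1 CPM in the other 11 libraries, and 1 Jmjd1a HY/HY library at 30°C (replicate 3) had 16.8% of its counts on mitochondrial DNA against 9.32% and 9.76% in the other two of its group. Adipocyte markers were high in every library, from 22756 to 51356 CPM summed over 9 genes, as the tissue label says. The tissue is a mixture of cells, and in such bulk samples fewer cells of a type and less RNA per cell cannot be told apart.

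Of 16540 genes tested, 512 (3.10%) passed both limits of the additive model, an adjusted p below 0.05 and a level in Jmjd1a HY/HY over 1.5 times or under 0.67 times that in wild type. In Jmjd1a HY/HY mice 275 genes (1.66%) were higher and 237 (1.43%) were lower. All 275 higher genes and 231 of the 237 lower genes had the same sign at both temperatures. A gene was taken as shifted alike when, beside this sign, its log2 fold changes at 30°C and 8°C differed by less than 0.58, the log2 of 1.5. This held for 233 higher genes (1.41% of genes tested, 84.7% of those called higher) and for 114 lower genes (0.689% of genes tested, 48.1% of those called lower). By these estimates most called rises were of like size at both temperatures. Among the called falls 123 differed by more than the limit, 71 of them larger at 8°C and 52 larger at 30°C. A model with 1 shared coefficient favours genes of like effect, so these shares follow in part from the choice of genes. Only 1 called rise and 8 called falls had an adjusted p under 0.05 for the difference itself, and the contrast between rises and falls was not tested. The limit cut through a continuous range, with Csf1r at a difference of 0.58 just inside and Matn2 at -0.59 just outside among the rises, and Traf4 at -0.58 inside and Krt18 at 0.60 outside among the falls.

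**Figure D1:**
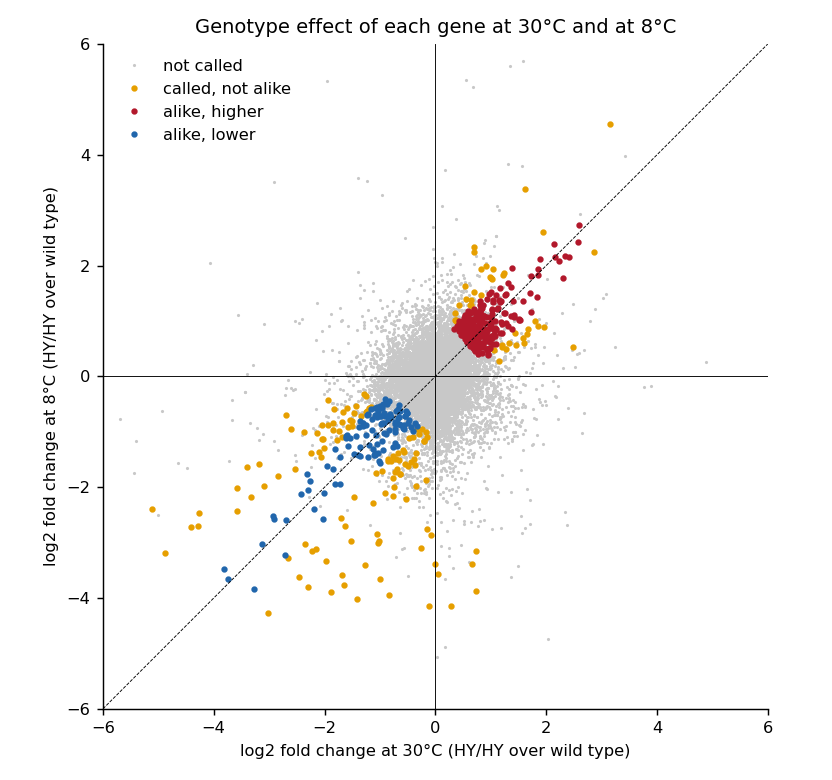
Each point is 1 gene, with the log2 fold change of HY/HY over wild type at 30°C on the x axis and at 8°C on the y axis, from 3 libraries per group. The 233 genes shifted alike and higher (red) and the 114 shifted alike and lower (blue) lie along the dashed line of equal change, the 165 other called genes (orange) lie off it and mostly below zero, and 9 genes beyond a log2 fold change of 6 are not drawn.

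Genes shifted alike had a median log2 fold change of 0.81 in the higher set (0.79 at 30°C, 0.90 at 8°C) and of -0.95 in the lower set (-1.02 at 30°C, -0.93 at 8°C), where the median of all genes tested was -0.02. Many of them passed the same limits at neither temperature when it was tested by itself, 115 of the 233 and 62 of the 114, and only with the 6 libraries of each genotype read together. In 161 of the 233 and 93 of the 114, the 3 Jmjd1a HY/HY libraries lay beyond all 3 wild-type libraries at each of the temperatures, a pattern that 2.48% of all genes tested showed for rises and 3.13% for falls. These genes were called on the same libraries, so a share above that of all genes follows from their choice and is no separate support. The limit on the difference describes the estimates only. The 95% interval of the difference lay inside it for 9 of the 233 and 6 of the 114 genes, and it reached a median of 0.73 and 0.92 on the log2 scale to either side of the estimate.

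The counts depended on single cold libraries. Against 275 higher and 237 lower genes with all libraries, leaving out wild type at 8°C replicate 1, 2 or 3 gave 168 and 145, 108 and 88, or 158 and 122, and leaving out Jmjd1a HY/HY at 8°C replicate 1 or 3 gave 161 and 119 or 128 and 92. Of the genes shifted alike, 82 of the 233 higher and 46 of the 114 lower kept their call whichever of the 12 libraries was left out. Without both libraries that stood apart at 30°C, 332 genes were higher and 374 lower, 257 and 165 of them alike.

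The largest shared fall was that of Rec8, a subunit of the cohesin of meiotic cells (chromosome 14, 55618002 to 55625395). At 30°C wild-type mice had 4.08, 5.16 and 2.82 CPM and HY/HY mice 0.116, 0.413 and 0.312 CPM. At 8°C the values were 0.817, 0.754 and 0.898 CPM against 0.13, 0.0625 and 0 CPM. No Jmjd1a HY/HY library reached the lowest wild-type library of its temperature, and in the cold the Jmjd1a HY/HY libraries held 2, 1 and 0 reads of the gene. The shared log2 fold change was -3.73 ± 0.35 (SE), a level 13.3-fold lower (adjusted p = 0.00198), and the call was kept with each library left out.

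The peptidylarginine deiminases, enzymes that turn arginine in proteins into citrulline, fell as a group of neighbours on chromosome 4. Padi3 (140785369 to 140810648) had 1.04, 1.55 and 1.44 CPM in wild-type and 0.116, 0.172 and 0.104 CPM in HY/HY libraries at 30°C, and 0.52, 1.21 and 0.513 CPM against 0.0648, 0 and 0.0812 CPM at 8°C. It was 10.7-fold lower (log2 -3.42 ± 0.38, SE, adjusted p = 0.00345), on 0 to 5 reads in each Jmjd1a HY/HY library. Padi4, which lies next to it at 140745508 to 140774239, had 5.98, 3.97 and 33.6 CPM against 1.82, 2.34 and 0.78 CPM at 30°C, and 3.27, 8.45 and 3.72 CPM against 0.842, 2.63 and 0.325 CPM at 8°C. Its groups did not overlap either, but 1 wild-type library was far above the other two, and its shared log2 fold change was -2.60 ± 0.62 (SE, adjusted p = 0.034). Padi2, on the other side of Padi3 at 140906336 to 140952586, had 79.6, 33.4 and 66.4 CPM against 22.8, 37.1 and 12.4 CPM at 30°C, where the groups overlapped, and 29.9, 28.7 and 26.1 CPM against 16.3, 19.8 and 9.01 CPM at 8°C, where they did not. It was 2.16-fold lower (adjusted p = 0.0413). Padi3 kept its call in all 12 fits with a library left out, Padi4 in 6 and Padi2 in 4. Padi2 and Padi3 were shifted alike, whereas the estimates for Padi4 differed by 1.13 between the temperatures.

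Since these 3 genes and Rec8 fell together, the 150 bases before 1 RefSeq start site of each are printed (GRCm38.p6, each 5′ to 3′ on the strand of the gene). The start site used lies 164, 24 and 36 bases inside the gene coordinates given above for Rec8, Padi2 and Padi4. The bases printed for Rec8 thus lie wholly inside the gene and those for Padi2 and Padi4 in part, while for Padi3 the start site is the boundary of the gene. Each promoter window of 300 bases was searched on both strands for the TATA box TATAAA, the E-box CACGTG, the cyclic AMP response element TGACGTCA and GGTCANNNTGACC, a palindrome of the estrogen response element, and a match inside the printed bases is in capitals.
Rec8, chr14:55618016-55618165, plus strand: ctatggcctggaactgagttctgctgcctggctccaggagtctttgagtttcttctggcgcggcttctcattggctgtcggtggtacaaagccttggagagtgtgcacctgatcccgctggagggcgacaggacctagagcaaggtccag
Padi2, chr4:140906210-140906359, plus strand: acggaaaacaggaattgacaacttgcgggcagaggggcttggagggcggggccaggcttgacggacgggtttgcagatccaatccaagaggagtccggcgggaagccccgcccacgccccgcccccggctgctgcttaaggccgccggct
Padi3, chr4:140810649-140810798, minus strand: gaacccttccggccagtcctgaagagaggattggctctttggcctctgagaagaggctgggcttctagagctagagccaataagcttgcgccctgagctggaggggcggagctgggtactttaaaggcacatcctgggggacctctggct
Padi4, chr4:140774204-140774353, minus strand: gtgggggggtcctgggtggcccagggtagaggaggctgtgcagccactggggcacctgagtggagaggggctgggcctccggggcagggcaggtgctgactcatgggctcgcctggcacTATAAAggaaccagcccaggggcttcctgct

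Only the stretch before Padi4 held a match, to TATAAA. RefSeq windows were found for 11135 of the genes tested, 166 of those shifted alike and higher and 86 of those lower. TATAAA was in the windows of 9.08% of all these genes, 13.9% of the higher and 6.98% of the lower, CACGTG in 11.4%, 6.63% and 4.65%, and TGACGTCA in 3.37%, 0.602% and 4.65%. GGTCANNNTGACC was in the window of 1 gene tested and of none shifted alike. The windows of genes shifted alike and higher held a median of 11.8 CpG pairs, those of the lower genes 16 and those of all genes 20. A match is a description of these letters, and its absence says nothing of the factors that bind elsewhere.

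Targets of ovarian hormones were among the falls. Greb1, an estrogen receptor target, had 18.4, 6.67 and 16.2 CPM in wild-type and 0.659, 4.06 and 0.104 CPM in HY/HY libraries at 30°C, and 3.86, 7.24 and 4.81 CPM against 0, 0.75 and 0 CPM at 8°C. The groups did not overlap, and the shared log2 fold change was -3.42 ± 0.68 (SE, adjusted p = 0.0184). Areg, which encodes the growth factor amphiregulin, had 297, 95.5 and 424 CPM against 32, 69.4 and 72.8 CPM at 30°C, and 70.9, 98.7 and 135 CPM against 14.5, 14.3 and 5.11 CPM at 8°C. It was 6.39-fold lower (log2 -2.68 ± 0.40, SE, adjusted p = 0.00622). Both genes kept the call with each library left out, and both missed the limit for a like shift, with differences of -1.24 (95% interval -4.49 to 2.02) and -0.93 (-2.52 to 0.67). Of 13 tested genes on the list of ovarian hormone receptors and targets, 5 were called, all of them lower (Padi2, Padi3, Padi4, Areg and Greb1). Of all genes tested 1.43% were called lower. The list's median log2 fold change was -0.70 (-1.08 at 30°C, -0.33 at 8°C). The list was written with earlier results of these data known, and its Padi genes are neighbours, so the count is a description only.

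**Figure D2:**
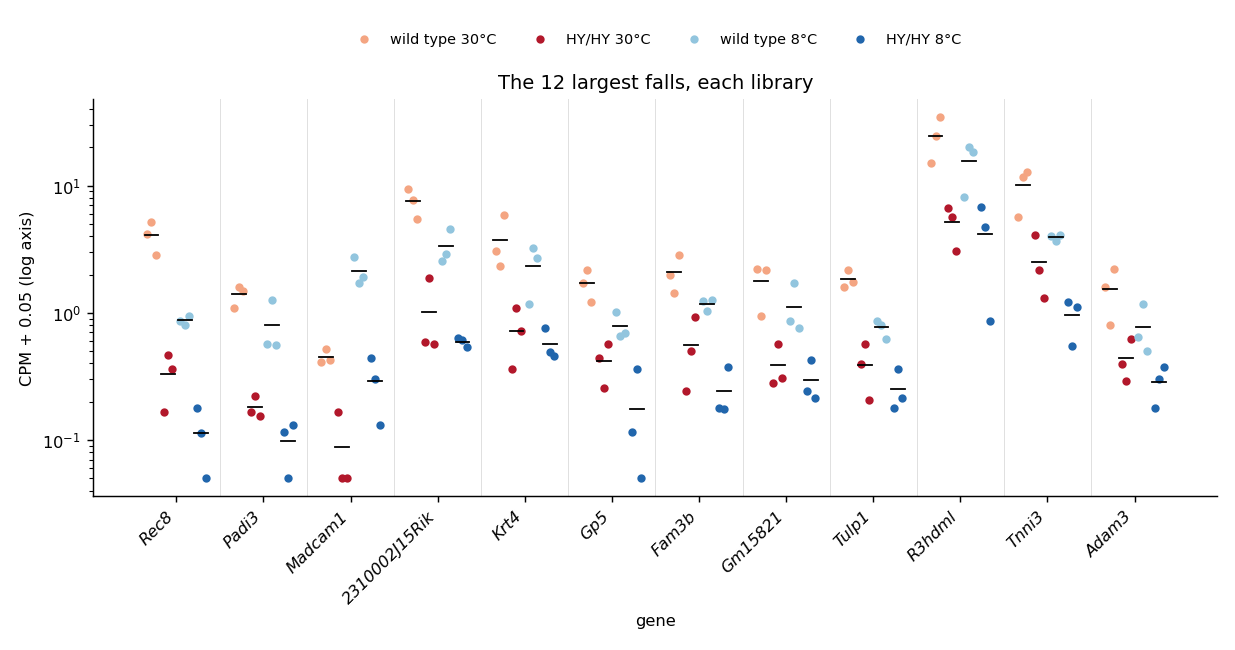
The 12 largest falls among genes shifted alike with a symbol, at least 10 mean counts and no overlap at either temperature. CPM plus 0.05 is on a log axis, with 1 point per library, 3 per group, and a black bar at the group mean. By this choice the 3 HY/HY points of each gene lie below the 3 wild-type points of the same temperature. Several HY/HY points of Rec8, Padi3, Madcam1 and Gp5 sit at or near the floor set by 0 reads.

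Of 17 keratin genes tested, a group set after their values were seen, 7 were called lower (Krt4, Krt6a, Krt7, Krt8, Krt18, Krt19 and Krt78) and none higher. Of all genes tested 1.43% were called lower. Krt4 and Krt78 kept their calls in all 12 fits that left a library out, and Krt8, Krt19, Krt7, Krt6a and Krt18 in 9, 8, 6, 4 and 2 of them. Krt5 and Krt14, the paired keratins of basal epithelial cells, were not called (log2 -0.36 and -0.32, adjusted p = 0.863 and 0.871). Krt4, a keratin of stratified epithelia (chromosome 15, 101918535 to 101924735), had 3.04, 2.27 and 5.85 CPM against 0.31, 1.03 and 0.676 CPM at 30°C, and 1.11, 3.17 and 2.63 CPM against 0.712, 0.438 and 0.406 CPM at 8°C, and was 4.94-fold lower (adjusted p = 0.00723). Krt8 and Krt18, the paired keratins of simple epithelia, lie within the same cluster and fell by 1.17 ± 0.25 and 0.94 ± 0.24 on the log2 scale (SE, adjusted p = 0.0256 and 0.0437). Krt19 fell by 1.08 ± 0.24 and Krt7 by 1.06 ± 0.24 (adjusted p = 0.0288 and 0.0317). Krt4, Krt7, Krt8, Krt18 and Krt19 did not overlap between the genotypes at either temperature, a pattern that 3.13% of all genes tested showed for falls. They were called on the same libraries, so this is no separate support. At 30°C Krt19 had a mean of 1412 ± 190 CPM in wild-type and 466 ± 153 CPM in HY/HY libraries (SD, n = 3), and at 8°C 709 ± 97.1 against 479 ± 138 CPM. Krt4 and Krt7 were shifted alike, while Krt8, Krt18 and Krt19 fell more at 30°C than the limit allowed.

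A list of mammary epithelium markers holds some of these keratins itself. Of 17 such markers tested, Krt7, Krt8, Krt18 and Krt19 were called, all lower. A negative log2 fold change was found in 15 (8623 of all 16540 genes), and the median was -0.48 (-0.92 at 30°C, -0.12 at 8°C). Summed over the list, the markers reached 4155 to 6672 CPM in wild-type and 1108 to 2853 CPM in HY/HY libraries at 30°C, and 2500 to 2874 CPM against 1535 to 2414 CPM at 8°C, without overlap at either temperature. Without these 4 keratins, a choice made after seeing the data, none of the other 13 tested was called, 11 had a negative log2 fold change, and the median was -0.40. Their sum then overlapped at 30°C (756 to 1963 CPM against 305 to 923 CPM) and was higher in HY/HY libraries at 8°C (497 to 609 CPM in wild type against 625 to 707 CPM), so the lower sum at 8°C rested on the called keratins. The milk protein genes Csn1s1, Csn2 and Wap had at most 1, 2 and 2 reads in any library. The part of epithelial content in the falls of Padi2, Padi3, Padi4, Greb1, Areg and the keratins was not tested.

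**Figure D3:**
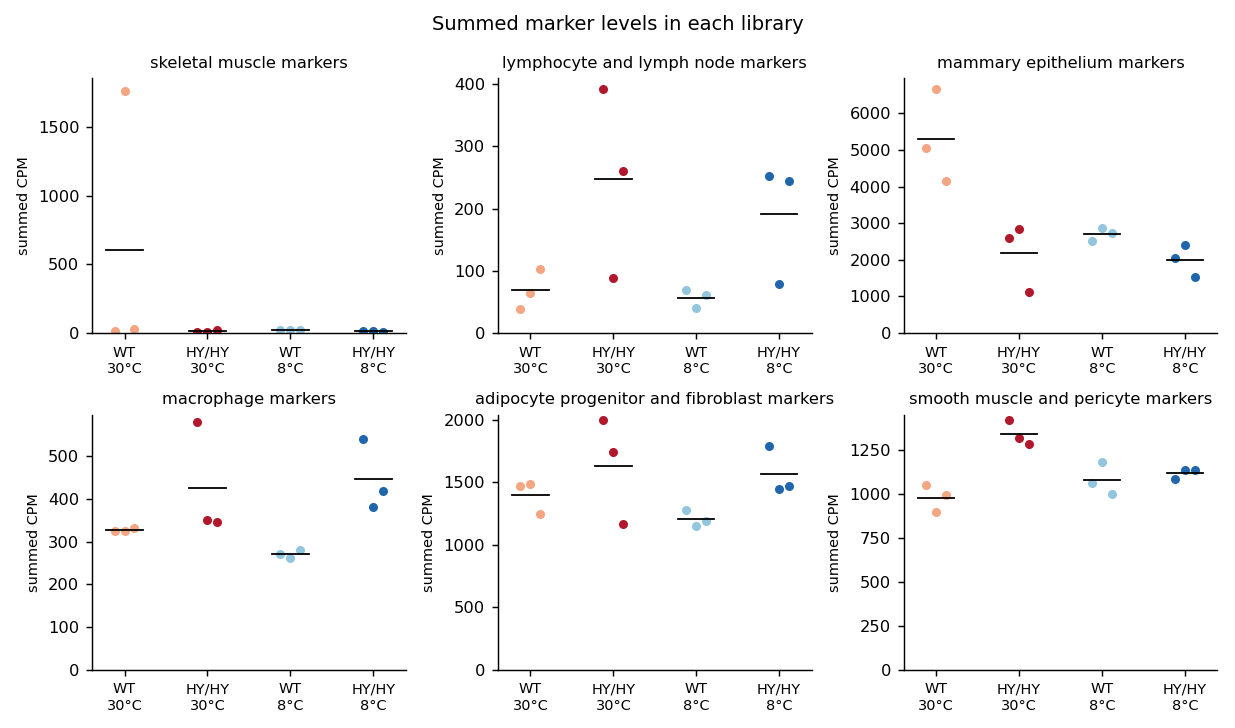
Summed CPM of 6 marker lists in each library, with 1 point per library, 3 per group, and a black bar at the group mean. Mammary epithelium markers, the called keratins included, are lower and macrophage markers higher in HY/HY at both temperatures without overlap. For macrophage markers at 30°C this is narrow, with HY/HY replicates 2 and 3 at 350 and 345 CPM against at most 332 CPM in wild type. A single wild-type library at 30°C holds the skeletal muscle signal.

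The remaining large falls had no list in common. Madcam1, the vascular addressin of mucosal venules (chromosome 10, 79664559 to 79668542), had 0.363, 0.469 and 0.372 CPM against 0.116, 0 and 0 CPM at 30°C, and 2.68, 1.66 and 1.86 CPM against 0.389, 0.25 and 0.0812 CPM at 8°C. It was 8.32-fold lower (adjusted p = 0.00554), with 0 to 6 reads in each Jmjd1a HY/HY library, although its level in wild-type mice was several times higher in the cold. 2310002J15Rik, named Cysrt1 in RefSeq (chromosome 2, 25238819 to 25239897) had 9.34, 7.68 and 5.37 CPM against 0.542, 1.82 and 0.52 CPM at 30°C, and 2.53, 2.87 and 4.49 CPM against 0.583, 0.563 and 0.487 CPM at 8°C. It was 6.86-fold lower (adjusted p = 0.00466) and did not overlap at either temperature. Tnni3, the inhibitory troponin subunit of heart muscle, had 5.57, 11.7 and 12.8 CPM in wild-type libraries and at most 4.03 CPM in HY/HY libraries at 30°C, and 3.94, 3.62 and 4.04 CPM against 1.17, 0.5 and 1.06 CPM at 8°C, and was 4.12-fold lower (adjusted p = 0.00605). It did not stand apart in the wild-type library with muscle transcripts, unlike the skeletal muscle markers. Of 9 of these tested, Ckm, Atp2a1 and Myh4 were called lower (1.43% of all genes), none of them alike. However, the second wild-type library at 30°C held 197, 208 and 275 CPM of them against at most 5.77 CPM in any other. The calls were lost in 8, 10 and 7 of the 12 fits that left a library out. Without that wild-type library itself, Ckm and Myh4 were still called (log2 -3.82 and -5.67), and Atp2a1 was not.

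The 12 largest falls named here were taken from genes with a symbol, at least 10 mean counts, a like shift and no overlap at either temperature. The others of them were Gp5, a platelet glycoprotein (4.77-fold), Fam3b, a secreted protein of pancreatic islets (4.66-fold), Gm15821 (4.60-fold), Tulp1, a photoreceptor protein (4.38-fold), R3hdml (4.26-fold), and Adam3, a membrane protein of sperm (3.55-fold). Their adjusted p-values ranged from 0.00554 for Tulp1 to 0.0194 for Adam3, and only Adam3 lost its call in a fit that left out a library, that without wild type at 8°C replicate 2. The fall of Gm15821 depended on the strand counted. With the strands combined its log2 fold change was -0.49 (edgeR adjusted p = 0.233), and it was not called. R3hdml was the one with the most reads, at 15.1, 24.4 and 34.3 CPM in wild-type and 6.63, 5.61 and 3.01 CPM in HY/HY libraries at 30°C, and 8.1, 20 and 18.3 CPM against 6.73, 4.69 and 0.812 CPM at 8°C. Wdr66, a protein of cilia and flagella, was among the 12 genes of smallest p. It had 5.39, 4.55 and 5.31 CPM against 2.25, 2.58 and 2.39 CPM at 30°C, and 4.46, 3.55 and 4.11 CPM against 1.94, 2.19 and 1.62 CPM at 8°C, with a log2 fold change of -1.07 ± 0.13 (SE, adjusted p = 0.00484) and a difference between the temperatures of 0.01 (95% interval -0.60 to 0.62).

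The 12 largest rises named here were taken from genes with a symbol, at least 10 mean counts, a like shift and no overlap at either temperature. Among them Ighm, the heavy chain of immunoglobulin M (chromosome 12, 113418826 to 113422730), had the most reads. It had 24.5, 54.7 and 62 CPM in wild-type and 344, 73 and 249 CPM in HY/HY libraries at 30°C, and 48.4, 24.8 and 51.3 CPM against 234, 64.8 and 230 CPM at 8°C. The groups did not overlap, but 1 Jmjd1a HY/HY library at each temperature lay close to the wild-type libraries. The gene was 4.48-fold higher (log2 2.16 ± 0.41, SE, adjusted p = 0.0152). It was the only called gene of 15 tested markers of lymphocytes and lymph nodes (1.66% of all genes were called higher). The median of these markers was -0.04, and 7 were positive and 8 negative. Their summed level, Ighm included, was 38.5 to 103 CPM against 88.6 to 392 CPM at 30°C, and 40.2 to 68.5 CPM against 78.5 to 252 CPM at 8°C.

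Macrophage markers were a group of rises. All 17 tested macrophage markers had a positive log2 fold change, 15 of them at both temperatures, and 5 were called, all higher, 4 of these shifted alike. Of all 16540 genes tested, 7917 were positive, 4818 were positive at both temperatures and 275 (1.66%) were called higher. The median log2 fold change was 0.47 (0.34 at 30°C, 0.56 at 8°C). Mrc1, the mannose receptor, had 21.4, 16.8 and 17.3 CPM against 36.1, 21.5 and 32.5 CPM at 30°C, and 14.2, 16.1 and 18.5 CPM against 45.6, 32.3 and 36.1 CPM at 8°C, and was 1.94-fold higher without overlap (adjusted p = 0.00846). Csf1r, the receptor of the macrophage growth factor, was 1.84-fold higher (adjusted p = 0.0193), Cd163, the haemoglobin scavenger receptor, 1.93-fold (adjusted p = 0.0324), Emr1, which encodes F4/80, 1.71-fold (adjusted p = 0.0362), and Lyz2, lysozyme, 1.53-fold (adjusted p = 0.0476). Mrc1 kept its call with each library left out, and Csf1r, Cd163, Emr1 and Lyz2 kept theirs in 11, 5, 3 and 2 of the 12 fits. Summed, the markers reached 324 to 332 CPM against 581, 350 and 345 CPM at 30°C and 262 to 281 CPM against 381 to 540 CPM at 8°C. At 30°C the sums of HY/HY replicates 2 and 3 thus lay only slightly above the wild-type ones. Ctsc, a lysosomal protease that activates granule enzymes, was among the 12 genes of smallest p. It had 33.7, 38.5 and 36.8 CPM against 60.1, 52.6 and 68.1 CPM at 30°C, and 38.1, 37.2 and 36.3 CPM against 88.2, 66.5 and 94.9 CPM at 8°C, and was 1.92-fold higher (adjusted p = 0.00484). The part of macrophage content in these rises was not tested.

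Extracellular matrix genes made up a further group. Of 30 genes on the matrix and TGF-beta list, 25 were positive (7917 of all 16540 genes). On this list 3 were called, all higher and alike (1.41% of all genes), and the median was 0.37. Col15a1, a collagen of basement membranes, had 136, 130 and 154 CPM against 371, 219 and 349 CPM at 30°C, and 181, 137 and 199 CPM against 320, 257 and 308 CPM at 8°C (1.96-fold, adjusted p = 0.00685). Lox, the enzyme that cross-links collagen, was 2.17-fold higher (adjusted p = 0.00554), and Ctgf, a matricellular protein, 2.42-fold (adjusted p = 0.0344), although its groups overlapped at 30°C. Adamts5, a protease that cleaves aggrecan and versican, had 36.7, 52.2 and 31.2 CPM against 109, 100 and 137 CPM at 30°C, and 35.7, 29.6 and 27 CPM against 75.4, 47.9 and 62.7 CPM at 8°C. It was 2.42-fold higher (log2 1.27 ± 0.16, SE, adjusted p = 0.00554). Of the fibroblast and progenitor markers 2 of 16 were called, both higher (1.66% of all genes). These were the proteoglycans Dcn and Lum, which neighbour each other on chromosome 10 and rose 1.85-fold and 1.54-fold (adjusted p = 0.0285 and 0.0275). Ctgf, Dcn and Lum kept their calls in 4, 5 and 6 of the 12 fits that left a library out. The fibroblast and progenitor list as a whole had 9 positive and 7 negative members and a median of 0.10. Its summed level was 1248 to 1490 CPM against 1168 to 1997 CPM at 30°C, with overlap, and 1149 to 1282 CPM against 1445 to 1792 CPM at 8°C, without.

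**Figure D4:**
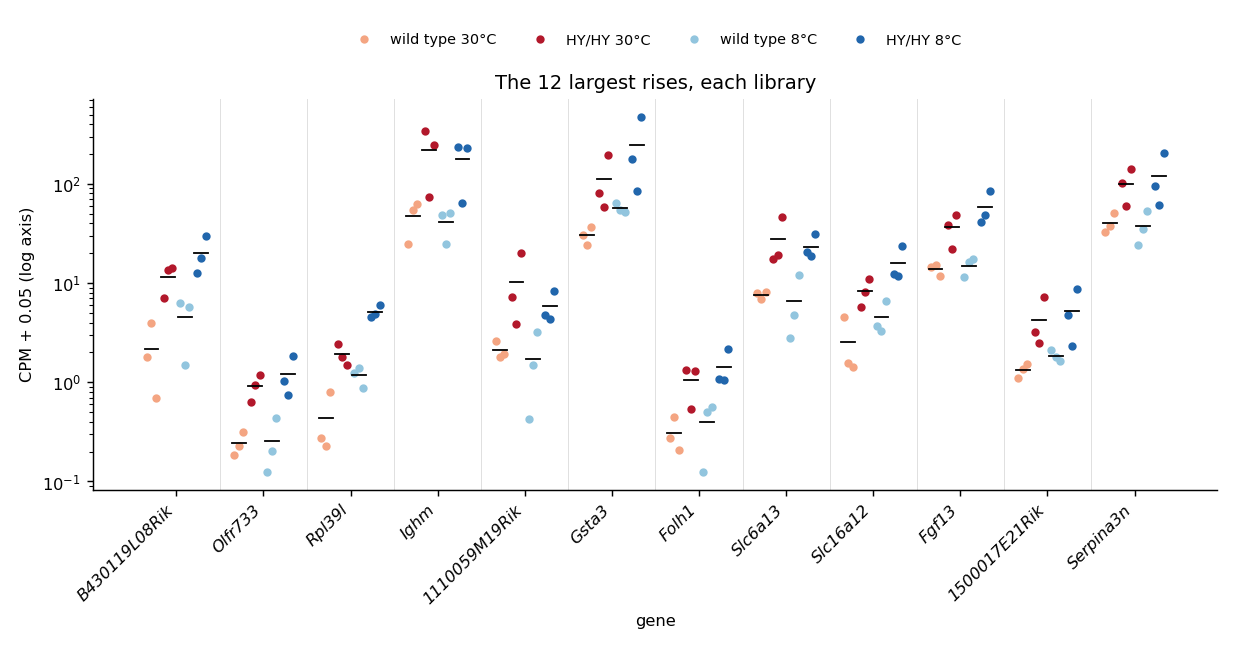
The 12 largest rises among genes shifted alike with a symbol, at least 10 mean counts and no overlap at either temperature. CPM plus 0.05 is on a log axis, with 1 point per library, 3 per group, and a black bar at the group mean. By this choice the 3 HY/HY points of each gene lie above the 3 wild-type points of the same temperature, narrowly so for Ighm, Folh1 and 1500017E21Rik.

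Metabolic enzymes and transporters were spread over the rises. Gsta3, a glutathione transferase (chromosome 1, 21240565 to 21265575), had 30.2, 24.1 and 36.4 CPM against 80.3, 58.1 and 196 CPM at 30°C, and 63.5, 54 and 52 CPM against 179, 85.6 and 471 CPM at 8°C. It was 4.0-fold higher (adjusted p = 0.0152), with the third Jmjd1a HY/HY library the highest at each temperature. Reads that map also to close paralogs of the family were not counted. Slc6a13, a transporter of GABA and taurine, had 7.98, 6.78 and 8.08 CPM against 17.5, 19 and 46.4 CPM at 30°C, and 2.75, 4.68 and 12.1 CPM against 20.3, 18.5 and 30.9 CPM at 8°C (3.58-fold, adjusted p = 0.0124). Slc16a12, a creatine transporter, was 3.42-fold higher (adjusted p = 0.0125), and Gamt, the last enzyme of creatine synthesis, 1.65-fold (adjusted p = 0.0177). Folh1, a carboxypeptidase that releases glutamate, was 3.71-fold higher (adjusted p = 0.023) on 1 to 33 reads per library. Slc6a13, Slc16a12, Gamt and Gsta3 kept their calls with each library left out.

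The other large or steady rises had varied roles. Scn7a, a sodium channel of glia and nerve that senses sodium level, had the second smallest p of all named genes. It had 57.9, 64.7 and 49.7 CPM against 99.4, 98.7 and 83.7 CPM at 30°C, and 45.4, 40.4 and 42.1 CPM against 74.7, 73.2 and 74.9 CPM at 8°C, a log2 fold change of 0.75 ± 0.08 (SE, adjusted p = 0.00313) whose difference between the temperatures was 0.09 (95% interval -0.25 to 0.43). Gnai1, an inhibitory G protein subunit, had 42.1, 55.3 and 32.8 CPM against 103, 80.7 and 124 CPM at 30°C, and 67.8, 65.1 and 71.1 CPM against 130, 124 and 194 CPM at 8°C (2.28-fold, adjusted p = 0.00554). Olfm1, a secreted glycoprotein of neurons, rose 2.11-fold, Antxr2, the receptor of the extracellular matrix and of anthrax toxin, 1.65-fold, and Apobec1, the cytidine deaminase that edits apolipoprotein B mRNA, 1.64-fold, each with an adjusted p of 0.00554. Fgf13, an intracellular member of the fibroblast growth factor family, rose 3.18-fold (adjusted p = 0.00554) and Serpina3n, a secreted protease inhibitor, 2.82-fold (adjusted p = 0.0204). Rpl39l, a copy of the ribosomal protein gene Rpl39, had 0.227, 0.18 and 0.744 CPM against 2.4, 1.76 and 1.46 CPM at 30°C, and 1.19, 1.36 and 0.834 CPM against 4.53, 4.88 and 5.93 CPM at 8°C. It was 4.77-fold higher (adjusted p = 0.00554). Reads that map both to it and to Rpl39 were not counted, so the value is uncertain. It was the only called gene among 80 cytosolic ribosomal protein genes, of which 78 were negative (8623 of all 16540 genes) with a median of -0.22. Of the remaining large rises, B430119L08Rik (4.87-fold), the olfactory receptor gene Olfr733 (4.78-fold), 1110059M19Rik (4.19-fold) and 1500017E21Rik (3.06-fold) had adjusted p-values from 0.00854 to 0.0269.

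White adipocyte genes were mostly positive. Of 30 genes on that list 27 had a positive log2 fold change (7917 of all 16540 genes). On the list 4 were called, all higher (1.66% of all genes), and the median was 0.32 (0.36 at 30°C, 0.39 at 8°C). Retn, which encodes the adipokine resistin, and Hoxc8, a homeobox gene of subcutaneous fat, rose 1.55-fold and 1.56-fold without overlap and alike (adjusted p = 0.0377 and 0.0285). Such a lack of overlap was seen for rises in 2.48% of all genes tested. Lep, which encodes leptin, had 352, 236 and 294 CPM against 244, 466 and 942 CPM at 30°C, with overlap, and 106, 78 and 155 CPM against 397, 259 and 689 CPM at 8°C, without. Its shared log2 fold change was 1.45 ± 0.36 (SE, adjusted p = 0.0404), and it was not shifted alike (0.91 at 30°C, 1.99 at 8°C). Npr3, the clearance receptor of natriuretic peptides, rose 2.31-fold (adjusted p = 0.0308), with log2 fold changes of 1.65 at 30°C and 0.76 at 8°C. Retn, Hoxc8, Lep and Npr3 kept their calls in 5, 6, 4 and 6 of the 12 fits that left a library out.

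The lists of other pathways held few called genes. For comparison, 1.66% of all genes tested were called higher and 1.43% lower. None of 21 H3K9 demethylases and methyltransferases, 25 genes of fatty acid and triglyceride synthesis, 18 of cholesterol synthesis and uptake, 19 clock genes, 15 cytosolic heat shock genes, 5 tested germline genes, 74 mitochondrial ribosomal protein genes, 12 endothelial, 4 erythrocyte, 3 brown adipocyte or 9 mast cell, neutrophil and eosinophil markers was called by edgeR. Their median log2 fold changes lay between -0.21 and 0.41. The germline list named 24 genes, most of them not tested, and did not hold Rec8, Adam3 or Cox6b2, which were called lower. At an unadjusted p below 0.05 stood 3913 of the 16540 genes tested (23.7%), among them 8 genes of fatty acid and triglyceride synthesis, 21 mitochondrial ribosomal protein genes, 4 of cholesterol synthesis, 3 germline genes, 2 H3K9 enzymes, 1 clock gene, 1 heat shock gene, 1 brown adipocyte and 1 mast cell, neutrophil or eosinophil marker, and no endothelial or erythrocyte marker. DESeq2 called 4 of the fatty acid and triglyceride genes, 2 germline genes and 1 clock gene, and limma voom 1 of the fatty acid and triglyceride genes. Single genes were called on the lists of insulin signalling (Igf1, 1.68-fold higher), integrated stress (Psat1, 1.96-fold higher), type I interferon response (Usp18, 1.59-fold lower) and antioxidant genes other than Gsta3 (Gpx3, 2.57-fold lower). Igf1, Psat1, Usp18 and Gpx3 kept their calls in 2, 9, 2 and 6 of the 12 fits that left a library out, and the nerve markers Cdh19 and Pmp22 in 2 and 4. Nerve and Schwann cell markers had 2 of 10 called, Cdh19 and Pmp22, both higher and alike, while 5 of the 10 had a positive and 5 a negative log2 fold change (median 0.00064). Ngfr and S100b had -0.85 and -1.08 (adjusted p = 0.257 and 0.245). The list's summed level was 227 to 303 CPM against 401 to 428 CPM at 30°C and 271 to 319 CPM against 309 to 502 CPM at 8°C. Of 10 tested, smooth muscle markers had Myh11 higher (1.64-fold) and Des lower (1.87-fold). Of 10 tested genes for heat production without UCP1, Gamt was higher and Atp2a1 lower, and of 9 adipocyte markers Lep and Retn were higher. None of the 9 tested genes known to vary between mouse strains was called by edgeR, limma voom or DESeq2, with 2 at an unadjusted p below 0.05.

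Of 27 beige and thermogenic genes 4 were called, all lower (1.43% of all genes) and none alike. The additive log2 fold change was negative in 25 of the 27 (in 8623 of all 16540 genes), with a median of -0.91, which was 0.07 at 30°C and -2.0 at 8°C. They were Fabp3, a fatty acid binding protein (8.45-fold lower), Tnfrsf9, a receptor used as a beige marker (4.29-fold lower), Cpt1b, which brings fatty acids into mitochondria (4.67-fold lower), and Ppargc1b, a coactivator of mitochondrial genes (2.30-fold lower). Fabp3 and Tnfrsf9 did not overlap at either temperature, a pattern that 3.13% of all genes tested showed for falls. Fabp3 and Tnfrsf9 kept their calls with each library left out, while Cpt1b and Ppargc1b kept theirs in 3 and 9 of the 12 fits. Of 78 nuclear subunits of oxidative phosphorylation 1 was called, Cox6b2, an isoform of a cytochrome oxidase subunit known from testis, which was also shifted alike. It had 2.58, 4.33 and 4.46 CPM against 1.59, 1.93 and 2.18 CPM at 30°C, and 4.9, 5.13 and 5.58 CPM against 2.46, 1.69 and 1.06 CPM at 8°C (2.42-fold lower, adjusted p = 0.0106). Of the 78 subunits 75 had a negative additive log2 fold change, with a median of -0.42, which was 0.16 at 30°C and -1.0 at 8°C. Of the cell cycle genes Cdc20 and Ccnb2 were called, both 2.30-fold lower and neither alike, and the median of the 22 genes was -0.18 at 30°C and -1.42 at 8°C. Of 21 tested genes of mitochondrial DNA the ribosomal RNA mt-Rnr1 was called, 2.59-fold lower. Cdc20, Ccnb2 and mt-Rnr1 kept their calls in 4, 3 and 2 of the 12 fits that left a library out.

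**Figure D5:**
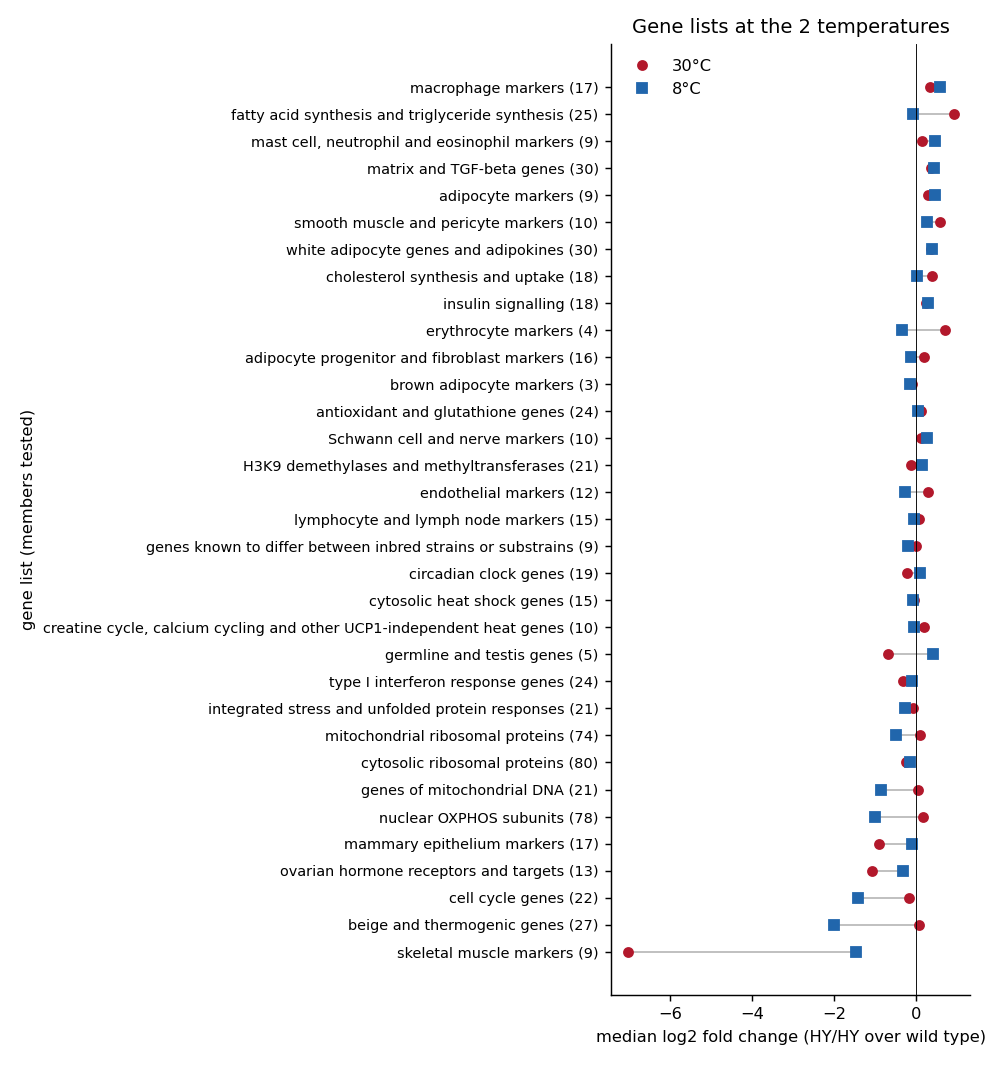
Median log2 fold change (HY/HY over wild type) of each gene list at 30°C (circles) and at 8°C (squares), with the number of members tested in brackets and lists ordered by their median shared effect. Macrophage, matrix and white adipocyte lists lie above 0 at both temperatures. The ovarian hormone, mammary epithelium and cell cycle lists lie below 0 at both, with mammary epithelium at -0.12 at 8°C and cell cycle at -0.18 at 30°C. Beige and oxidative phosphorylation lists are below 0 at 8°C, with medians of 0.07 and 0.16 at 30°C.

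Each temperature was also tested by itself in a model with 1 mean per group. At 30°C 93 genes (0.562%) were higher and 73 (0.441%) lower, and at 8°C 249 (1.51%) were higher and 731 (4.42%) lower. The comparisons share no library, so the direction at one temperature could be read for genes called at the other. Of the genes called higher at 8°C, 224 of 249 (90.0%) were also positive at 30°C, against 49.0% of all genes, and of those called lower at 30°C, 65 of 73 (89.0%) were negative at 8°C, against 48.7%. Of the genes called higher at 30°C, 65 of 93 (69.9%) were positive at 8°C, against 51.3%. Of the genes called lower at 8°C, 336 of 731 (46.0%) were negative at 30°C, against 51.0% of all genes. Rises called in the cold thus mostly shared their sign with thermoneutrality, while falls called in the cold did so at a share below that of all genes.

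These shares moved with single libraries. Without both libraries that stood apart, 75.5% of the genes higher at 8°C were positive at 30°C (46.6% of all genes) and 64.6% of the genes lower at 8°C were negative at 30°C (53.3% of all genes). When only the 6 libraries of 30°C were fitted, no gene passed the adjusted p in edgeR (lowest 0.135), and 1820 of 16390 genes had an unadjusted p under 0.05. The calls at 30°C given above used the spread estimated from all 12 libraries.

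The temperatures differed in the size of the genotype effect for 370 genes (2.24%) at an adjusted p under 0.05 for the difference itself, and 9 of the 512 called genes were among them, 8 lower and 1 higher. The 6 called genes with the smallest p for the difference were all lower, with log2 fold changes from -1.03 for Flcn to -4.15 for Acot12 at 8°C and from -0.38 for Speg to 0.28 for Acot12 at 30°C. Acsl5, an acyl-CoA synthetase of mitochondria and endoplasmic reticulum, had 98.4, 93.6 and 93.2 CPM against 79.7, 89.5 and 86 CPM at 30°C, and 398, 412 and 479 CPM against 114, 138 and 101 CPM at 8°C. Its difference was -1.71 (95% interval -2.11 to -1.31, adjusted p = 0.00471). Tomm5, a subunit of the mitochondrial import pore, and Flcn, folliculin, a regulator of mTORC1 and lysosomal genes, differed by -0.95 and -0.74 (adjusted p = 0.0202 and 0.0218). Speg, a muscle kinase, Macrod1, an ADP-ribose hydrolase, and Acot12, an acetyl-CoA hydrolase, differed by -1.12, -0.97 and -4.43 (adjusted p = 0.0327, 0.036 and 0.0421). For these genes the shared coefficient is a mean of unequal effects. The count of 370 fell to 67 without Jmjd1a HY/HY at 8°C replicate 1 and rose to 652 without Jmjd1a HY/HY at 30°C replicate 1.

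Temperature itself raised 1081 genes (6.54%) and lowered 736 (4.45%) at 8°C in the additive model. Of the genes shifted alike and lower in Jmjd1a HY/HY mice, 33 of 114 (28.9%) were also lower in the cold and 6 (5.26%) higher, and of those shifted alike and higher 10 of 233 (4.29%) were lower in the cold and 11 (4.72%) higher. Rec8, 2310002J15Rik, Tnni3, Gp5, Tulp1, Krt7 and Padi2 were among those lower both in the cold and in Jmjd1a HY/HY mice, with temperature adjusted p-values in edgeR from 0.0028 for Rec8 to 0.041 for Gp5.

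Called genes lay on every autosome and on the X chromosome, with 2.08% to 4.75% of the tested genes of each called. None of the 45 tested genes within 5 Mb of Kdm3a was called by edgeR or limma voom (10 at an unadjusted p below 0.05, against 23.7% of all genes tested, and 3 called by DESeq2) and 1 of 54 within 10 Mb was, Hpgds, a prostaglandin D synthase (1.68-fold higher, adjusted p = 0.0305). Some called genes adjoined others of the same direction. Beside the Padi genes and the keratins, Madcam1 fell with C2cd4c (log2 -3.06 and -2.68), which lies 50533 bases away, Tnni3 fell with 6030429G01Rik (-2.04 and -1.59), 214 bases away, and 2310002J15Rik fell with Gm757 (-2.78 and -2.79), 2031 bases away. Among the rises, Olfr731, Olfr733 and Olfr735 (2.25, 2.26 and 2.51) and Abca9 and Abca6 (0.80 and 1.13) were such neighbours. These neighbours were chosen after their values were seen. Reads that mapped to several places or to several genes were not counted, which may lower the counts of genes so close or so alike in sequence.

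Further genes shifted alike kept the call with every library left out, and a few are named here, chosen after their values were seen. Among the rises were the hormone receptors Tshr, for thyrotropin (log2 1.36), Ptgfr, for prostaglandin F (1.48), and Mc2r, for corticotropin (0.77), the growth factor Bmp2 (0.98), the transcription factors Prrx1 (0.79), Tbx15 (0.64) and Zeb2 (1.02), the matrix protein Thbs2 (1.22), the peroxisomal transporter Abcd2 (0.99), the iron oxidases Cp (0.71) and Heph (0.86) and the phagocyte oxidase subunit Cybb (0.92). Among the falls were Cad, which starts pyrimidine synthesis (-0.70), the cytokine Mif (-0.63), the serine protease Hpn (-0.90), and Acsm3, an acyl-CoA synthetase (-1.20).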

How the data were processed

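RNA-seq was done on scWAT of 12 female mice, 3 per genotype and temperature. The authors trimmed read pairs (fastp), mapped them to mm10 (STAR) and deposited raw counts per gene, for the strands combined and singly, with no normalisation. Tool versions are not given in the sources used here. Entries that name no gene were left out, from 25.1% to 28.8% of pairs as unmapped and 26.7% to 32.2% as mapped to several places. The tests on sense-strand counts used edgeR 4.0.16 under R 4.3.3, with limma 3.58.1 and DESeq2 1.42.0 as alternatives. Of 55401 gene IDs, 29944 had a unique symbol in the tables used, and coordinates are those of RefSeq on GRCm38.p6 (mm10). filterByExpr on the 4 groups kept 16540 genes, and TMM factors were applied. The quasi-likelihood F test of genotype in the model temperature + genotype left 9 degrees of freedom, with genes varying between mice by 22.3% (common biological coefficient of variation), and a model with 1 mean per group (8 degrees of freedom) gave each temperature and their difference. P-values were two-sided and adjusted over all genes by the method of Benjamini and Hochberg. The standard error is the log2 fold change divided by the root of F. The exact permutation test exchanged genotype labels within each temperature, with a smallest p of 0.005, which every gene without overlap at both temperatures reaches by construction. Each library came from 1 mouse, and p-values measure the spread between these mice.

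Named genes were the 12 largest rises and 12 largest falls among called genes with at least 10 mean counts, a symbol, a like shift and no overlap at either temperature, the 12 genes of smallest p, Kdm3a, members of each list of smallest p, and the 6 called genes of smallest p for the difference. Members and lists were chosen with earlier results of these data known. Depth limits genes of few reads most. The alternatives were other tools, scalings, filters, strands, models and limits, replicate blocks and each library left out. Scripts were tested on simulated data.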

Additional observations from a re-analysis of the deposited data

Results flagged for a closer look

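The genotype effect differed between 30°C and 8°C for 370 genes, by the test of the difference itself. Of the genes named here, Acsl5 differed by -1.71 (8°C minus 30°C, log2), Tomm5 by -0.95, Flcn by -0.74, Speg by -1.12, Macrod1 by -0.97 and Acot12 by -4.43. All 6 had negative log2 fold changes in the cold. Acot12 had 0 to 2 reads per library at 30°C. Groups of 3 libraries are too small for the test of single outlying samples, which was not run.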

How the results depend on the processing

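Against 275 higher and 237 lower genes, DESeq2 called 450 and 474, and scaling by library totals left 141 lower. The lower genes numbered 144 where each library had to hold 10 counts, 375 with the averaged effect of the group model, 413 with no fold limit, and 374 without the pair of libraries that stood apart (chosen after seeing the data). Genes shifted alike (233 higher, 114 lower) numbered 362 and 283 with no fold limit and 141 and 62 under a narrower limit on the difference, and the lower ones 194 in DESeq2, 60 with library totals and 231 by sign alone. Library totals moved the median of all genes at 8°C from 0.01 to 0.15 and the share of higher among called genes from 53.7% to 62.9%. The 370 genes with a difference between temperatures became 809 in DESeq2 and 229 with library totals. With only the 6 libraries of a temperature, 0 genes were higher and 0 lower at 30°C in edgeR (1820 at an unadjusted p below 0.05), and 634 were higher at 8°C. Leaving out each library in turn gave 108 to 399 higher and 88 to 268 lower genes, 96 to 329 and 48 to 126 of them alike, and 67 to 652 with a difference. The share of same sign at the other temperature (also chosen after seeing the data) then ran from 49.4% to 100% for genes higher at 30°C, 79.2% to 95.2% for lower at 30°C, 77.2% to 95.3% for higher at 8°C and 35.9% to 58.3% for lower at 8°C. The lowest of these, for genes higher at 30°C, came without Jmjd1a HY/HY at 30°C replicate 1. With library totals the shares were 85%, 77.3%, 83.6% and 51.7%, and with each temperature fitted apart 83.3% for higher at 8°C. The cause of these shifts was not tested, beyond fewer libraries or genes where a setting removes them. The labels tie no replicate number to a shared litter or day, and r of deviations between same-numbered mice at a temperature was -0.06 to 0.35, above 0.1 in 4 of 6 pairs and not in all, so the numbers were not taken as pairs. A replicate block within temperature gave 229 higher and 219 lower genes, and a block of 3 levels 319 and 318. Of the 81 named genes that were called, 62 and 75 stayed called under these blocks (Lep, Padi2, Padi4, Cd163 and Lyz2 were among those not called under the first), 38 to 71 with a library left out, 78 of 78 testable in DESeq2, 70 in limma voom and 64 with library totals, and none changed sign. With the strands combined 76 of 80 testable stayed called, and Gm15821, 1500017E21Rik, Usp18 and Igf1 did not. Depth limits genes of a few reads, such as Padi3, Madcam1 and Rec8, whose folds rest on counts near 0.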
